A study of Rattus norvegicus with 25 samples.

Results

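The genes described are 30 genes of cholesterol supply and disposal in the rat hippocampus. Of these, 19 are enzymes of sterol synthesis, counting Ggps1, which lies on a side branch to other isoprenoids. Another 4 serve sterol sensing and the control of synthesis, and 2 move or store cholesterol inside the cell. The last 5 serve its export, turnover and the receptors that control export. The 30 genes were taken by symbol from the authors' gene count table. All 30 were among the 34322 genes listed, and all 30 passed the filter on low counts with 21064 genes in all. The list holds no lipoprotein uptake receptor. The rats were adult males of the Sprague-Dawley stock, bought from Charles River at 6 to 7 weeks of age, and RNA came from the hippocampus. There were 5 groups of 5 libraries. Vehicle-sham had a sham operation and vehicle. Vehicle-CCI had a controlled cortical impact (CCI), in which a piston strikes the exposed cortex, and vehicle. A supplement was added to the impact in the other 3 groups: thymus in TD-CCI, thymus cytosolic factor in TCF-CCI and thymus nuclear factor in TNF-CCI. The letters TNF stand for that supplement and not for the cytokine. The labels give no genetic change in any group. Dose, time between impact and sampling, and which hippocampus was taken are not given in the sources used here. No label ties each library to its own animal, so p-values speak only of spread among the libraries, which may be technical.

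Brain cells make nearly all of their own cholesterol, because lipoproteins of the blood do not pass the blood-brain barrier. Acetyl-CoA is built into mevalonate and isoprenoids, then into squalene, and squalene is closed and trimmed to cholesterol. When membrane sterol is low, SCAP carries the factor SREBP2 to the Golgi, where it is cut and freed to switch on the synthesis genes. INSIG proteins hold SCAP back when sterol is high. Sterol surplus forms oxysterols, which activate the liver X receptors (LXR), and LXR switch on the exporters ABCA1 and ABCG1. Neurons also turn cholesterol into an oxysterol with CYP46A1, which lets it leave the brain. In bulk tissue, fewer cells of a type and less RNA per cell cannot be told apart.

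The promoters of 5 members on which the results turn are printed to show the sequence next to their starts. Each is 300 bases, from 250 before to 50 after the gene start, from RefSeq on GRCr8, a later build than that of the counts. They read 5′ to 3′ on the gene's strand, and capitals mark CCAAT, the core of the binding site of NF-Y, a factor known to work beside SREBP2, or its reverse complement ATTGG.
Hmgcs1, GRCr8 chr2:53382054-53382353, plus strand: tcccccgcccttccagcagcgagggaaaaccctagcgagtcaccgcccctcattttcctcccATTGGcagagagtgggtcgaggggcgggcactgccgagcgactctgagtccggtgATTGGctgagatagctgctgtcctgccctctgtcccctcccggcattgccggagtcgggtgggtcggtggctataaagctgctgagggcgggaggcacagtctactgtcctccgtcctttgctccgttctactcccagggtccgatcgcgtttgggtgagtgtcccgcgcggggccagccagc
Idi1, GRCr8 chr17:66547475-66547774, minus strand: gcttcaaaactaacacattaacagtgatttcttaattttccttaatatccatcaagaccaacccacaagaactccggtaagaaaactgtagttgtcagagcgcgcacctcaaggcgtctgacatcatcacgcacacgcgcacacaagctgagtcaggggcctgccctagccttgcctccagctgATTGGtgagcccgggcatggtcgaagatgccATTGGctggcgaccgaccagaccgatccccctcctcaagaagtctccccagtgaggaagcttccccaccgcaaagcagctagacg
Fdps, GRCr8 chr2:176804767-176805066, minus strand: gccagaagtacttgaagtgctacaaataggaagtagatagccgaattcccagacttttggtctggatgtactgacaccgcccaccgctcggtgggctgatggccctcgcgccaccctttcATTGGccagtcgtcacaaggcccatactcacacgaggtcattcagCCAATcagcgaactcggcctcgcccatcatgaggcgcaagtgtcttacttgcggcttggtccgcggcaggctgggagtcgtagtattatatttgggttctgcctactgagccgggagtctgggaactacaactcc
Nsdhl, GRCr8 chrX:155817110-155817409, plus strand: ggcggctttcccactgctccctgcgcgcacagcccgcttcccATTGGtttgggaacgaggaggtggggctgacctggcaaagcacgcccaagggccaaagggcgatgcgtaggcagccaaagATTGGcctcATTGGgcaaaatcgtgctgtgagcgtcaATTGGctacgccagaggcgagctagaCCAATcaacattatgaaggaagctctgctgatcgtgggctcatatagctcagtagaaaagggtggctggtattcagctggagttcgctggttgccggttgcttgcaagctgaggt
Abca1, GRCr8 chr5:72596424-72596723, minus strand: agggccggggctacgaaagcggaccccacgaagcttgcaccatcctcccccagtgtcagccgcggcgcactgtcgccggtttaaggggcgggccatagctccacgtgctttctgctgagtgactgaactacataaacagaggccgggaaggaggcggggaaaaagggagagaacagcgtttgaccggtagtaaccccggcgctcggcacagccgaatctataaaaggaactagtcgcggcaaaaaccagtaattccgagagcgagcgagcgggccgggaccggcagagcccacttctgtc

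Hmgcs1, Idi1 and Fdps each held 2 such matches, Nsdhl held 5 and Abca1 held none. Of the 30 members, 25 had a RefSeq promoter; Pmvk, Fdft1, Sqle, Stard4 and Abcg1 did not match. CCAAT on either strand was found in 18 of 25 members, or 72.0%, and in 13 of 16 enzymes. Over all 33469 RefSeq promoters of this length the share was 37.5%. The sterol response element, TCAC and CCAC with 1 base between, was found in 0 of 25 members and in 1.12% of all promoters. A strict form of the LXR element, AGGTNA and GGTNA with 5 bases between, was found in 0 of 25 members and in 0.26% of all promoters. Only exact matches were counted. The printed Abca1 promoter holds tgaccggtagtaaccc, whose reverse complement departs from this strict form in the first base alone. Both strands were searched, and with no match of these motifs in the members none overlapped CCAAT. A match is a description of the letters and not of a bound site.

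In units of 1e6 counts, library totals ran from 27.3 to 44.9 with a median of 32.8, and the lowest raw count of any member in any library was 79, for Nr1h3. Pooled over genes, counting error was small beside the spread between libraries. Between libraries of one group, chi-square over its degrees of freedom ran from 25.7 to 776, where counting error alone gives about 1. This value pools genes on raw counts and does not speak for single members of low count, such as Nr1h3. Levels below are depth-scaled counts after TMM scaling (CPM). The library Vehicle-sham 2 stood apart. Mitochondrial ribosomal RNA took 25.6% of its counts, and its TMM factor was 0.645, the lowest of the 25. It was the highest of 25 libraries for 9 of 30 members and the lowest for 8. Over all tested genes it was the highest for 21.8% and the lowest for 31.4%. Among the 19 enzymes it was the highest for 8 and the lowest for 3. Vehicle-sham 3 came next on both measures, with a mitochondrial ribosomal RNA share of 17.3% and a TMM factor of 0.805. Comparisons with Vehicle-sham are therefore given with and without Vehicle-sham 2. Counts of calls with Vehicle-sham 2 and 3 both left out are given in the closing section.

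Compared per kilobase of the counted gene model, Cyp51 and Hmgcs1 were the most abundant members in Vehicle-sham, at 77.4 and 75.8 CPM per kilobase. Msmo1 (56.9), Fdps (38.9) and Pmvk (36.9) followed on the same scale. Without Vehicle-sham 2, Cyp51 was at 71.3, Hmgcs1 at 58.2 and Msmo1 at 51.3 CPM per kilobase. The lowest were Nr1h3, at 1.72, and Hsd17b7, at 2.51 CPM per kilobase. Over the 20 CCI libraries Hmgcs1 stood at 37.7 and Abca1 at 16.9 CPM per kilobase, against 75.8 and 6.69 in Vehicle-sham.

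**Figure D1:**
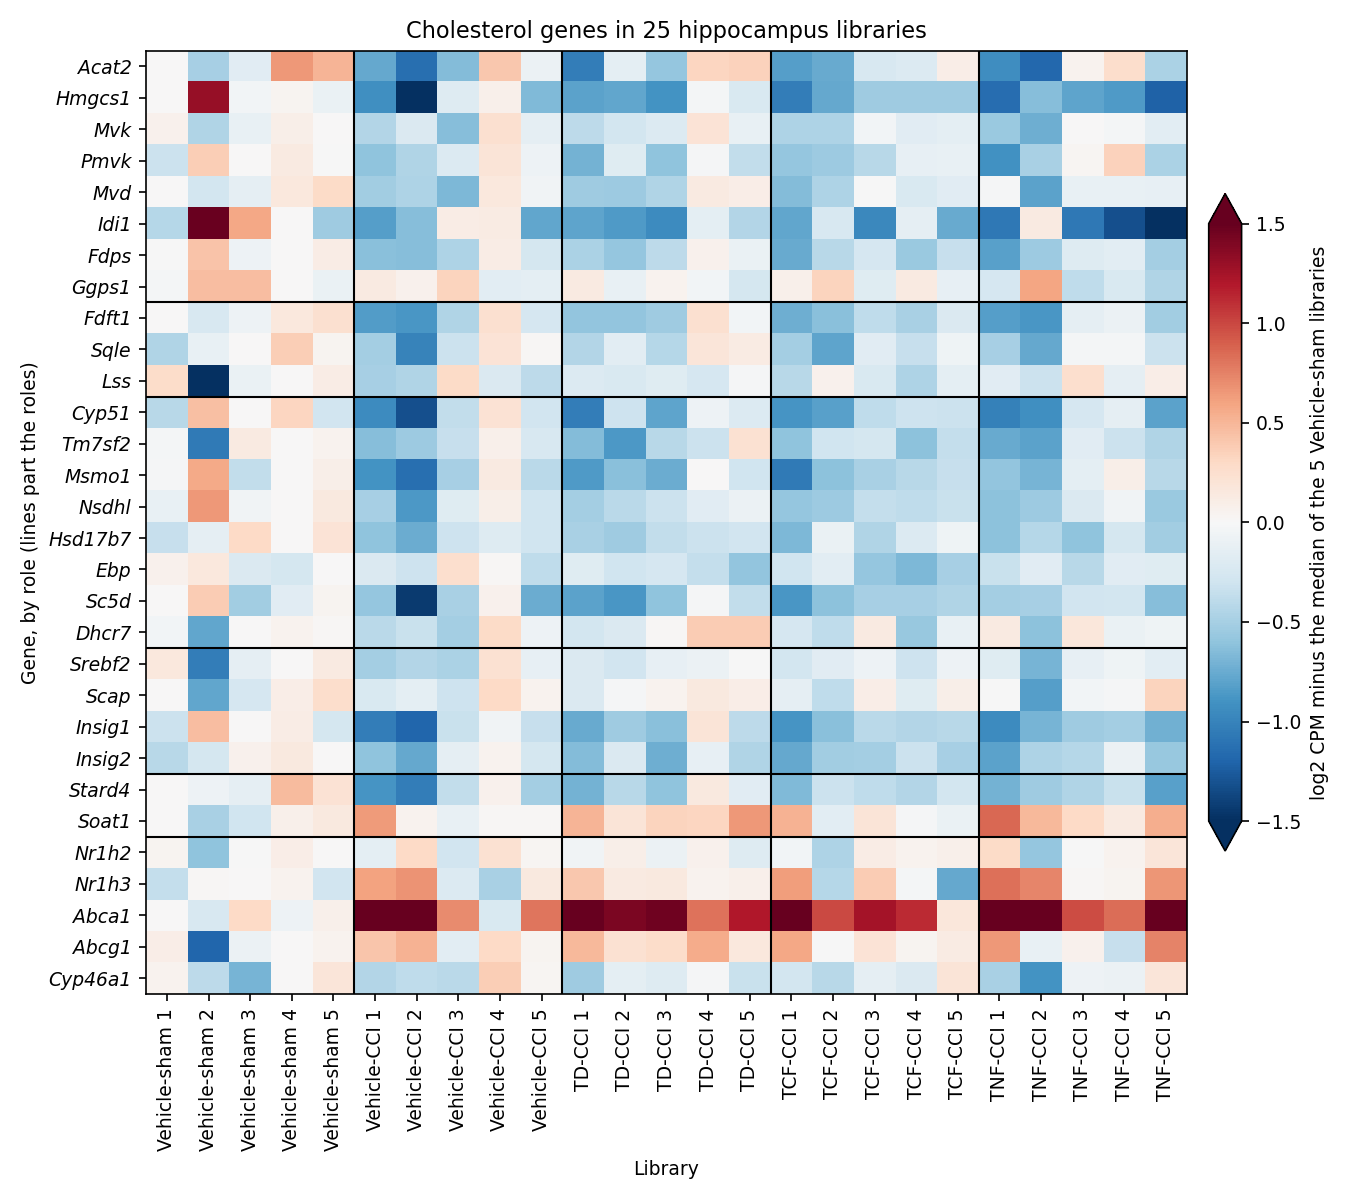
Each cell is the log2 CPM of a gene (rows, grouped by role) in a library (columns) minus the median of the 5 Vehicle-sham libraries; red is higher and blue is lower. The enzyme rows are mostly blue in the CCI libraries, but mostly faint red in Vehicle-CCI 4 and of both colours in TD-CCI 4. The Abca1 row is red in 18 of the 20 CCI libraries more than in any Vehicle-sham library.

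Over the mean of the 4 CCI groups against Vehicle-sham, 7 of the 30 members fell and 1 rose. Those that fell were the enzymes Hmgcs1, Idi1, Fdps, Nsdhl and Hsd17b7, the sterol sensor Insig1 and the sterol carrier Stard4. The member that rose was the exporter Abca1. These calls are edgeR quasi-likelihood tests at a Benjamini-Hochberg adjusted p under 0.05 over all genes tested. In the same comparison 3.68% of all genes were called lower and 2.24% higher. Of the 19 enzymes, 18 had a log2 fold change below 0, with Dhcr7 the exception, and their median was -0.42 beside 0.01 over all genes. Of all genes 48.8% lay below 0.

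Without Vehicle-sham 2, the edgeR test called 0 of 30 members, and 0.066% of all genes. At an unadjusted p under 0.05 there were 13 members lower and 2 higher, or 15 of 30, beside 15% of all genes. The direction was kept: 19 of 19 enzymes lay below 0, with a median of -0.34 beside 0.00 over all genes. With all libraries, DESeq2 called 9 members lower and 1 higher, beside 5.15% and 3.34% of all genes. By limma voom with sample quality weights 10 were lower and 1 higher, beside 3.12% and 3.05% of all genes. Neither was run without Vehicle-sham 2. Other single libraries moved the count too, along with that of all genes: it was 5 without Vehicle-sham 4 (3.57% of all genes called) and 13 without Vehicle-CCI 4 (9.92%). With the mitochondrial ribosomal RNA share as a covariate, Stard4 was the only member called lower and Abca1 the only one called higher, beside 0.798% of all genes called.

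**Figure D2:**
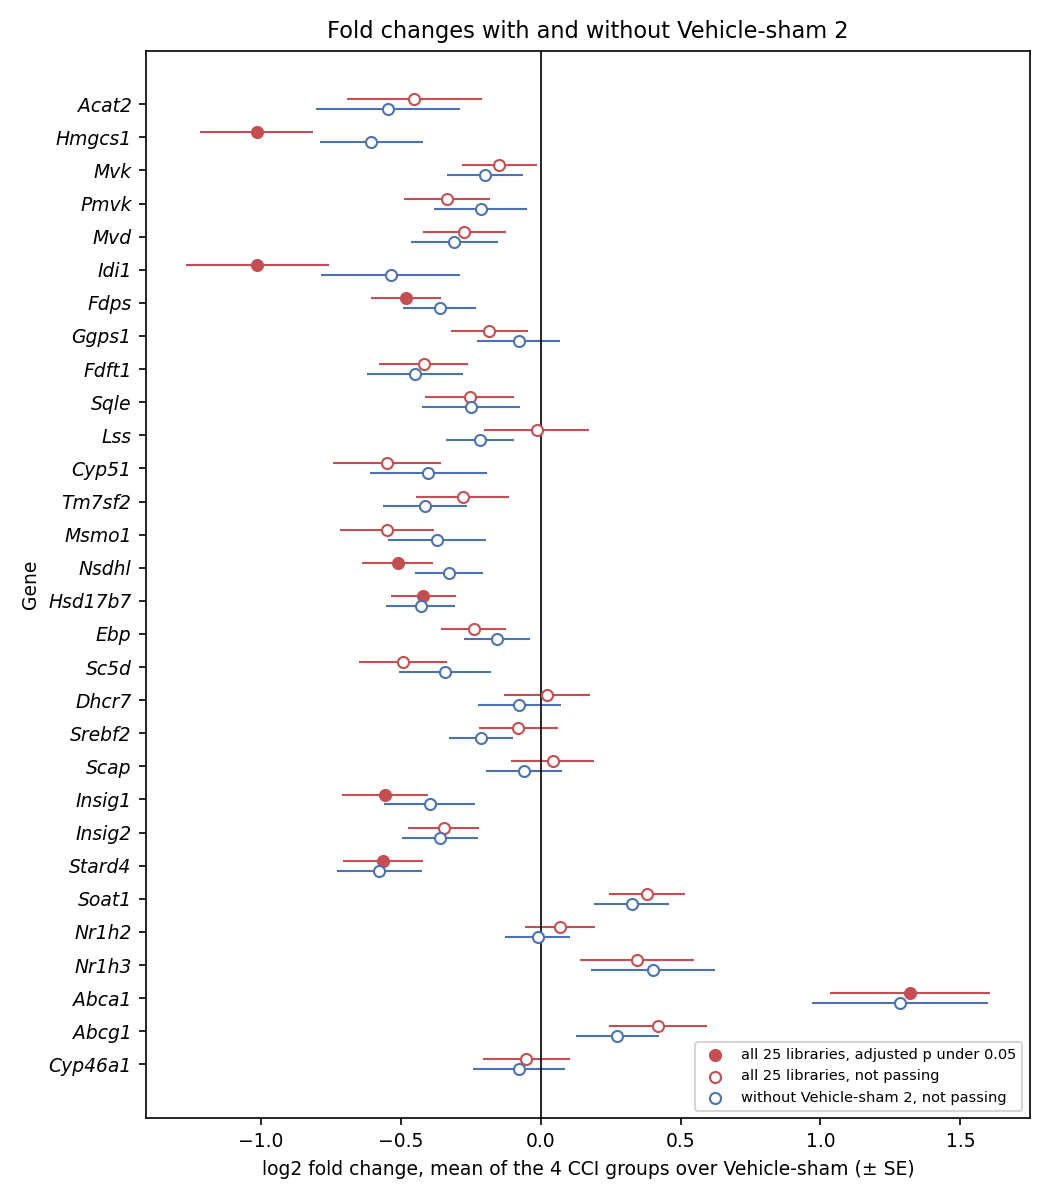
Points are log2 fold changes of the mean of the 4 CCI groups over Vehicle-sham with their SE for each of the 30 genes, in red with all 25 libraries and in blue without Vehicle-sham 2; filled points have an adjusted p under 0.05. The filled points are 7 genes below 0 and Abca1 above it, all in red; Hmgcs1 moves from -1.01 to -0.60 and Idi1 from -1.01 to -0.54, while Stard4 and Abca1 barely move.

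The mevalonate stage holds 8 of the enzymes, and 3 of them fell. Hmgcs1 makes hydroxymethylglutaryl-CoA, the precursor of mevalonate, and lies at chr2:51649368-51667100 on mRatBN7.2. Hmgcs1 was at 238, 589.6, 232, 245 and 223 CPM in Vehicle-sham 1 to 5. It was at 126, 83.5, 208, 252 and 151 CPM in Vehicle-CCI and at 136, 139, 128, 234 and 203 CPM in TD-CCI. Of these 10, 8 were below every Vehicle-sham library. It was at 116, 139, 164, 164 and 165 CPM in TCF-CCI and at 108, 153, 138, 132 and 103 CPM in TNF-CCI. In 18 of the 20 CCI libraries it was below every Vehicle-sham library, and the exceptions were Vehicle-CCI 4 and TD-CCI 4. The mean was 305 ± 159 CPM (SD, n = 5) in Vehicle-sham and 152 ± 43.4 CPM over the 20 CCI libraries. This was a log2 fold change of -1.01 ± 0.20 (SE), with an edgeR adjusted p of 0.0222. Vehicle-sham 2 was far above the other 4, which agreed closely at 234 ± 9.50 CPM, and without it the log2 fold change was -0.60 ± 0.18 (adjusted p = 0.12).

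Idi1 isomerises the first isoprenoid unit and lies at chr17:61629592-61637357, where Wdr37 overlaps it on the opposite strand. Idi1 was at 49.2, 185, 99.3, 66.2 and 45.6 CPM in Vehicle-sham 1 to 5. It was at 37.3, 42.4, 71.5, 72.0 and 38.7 CPM in Vehicle-CCI and at 38.2, 36.8, 34.4, 59.9 and 48.8 CPM in TD-CCI. The Vehicle-sham libraries were the more scattered, and 3 of them were below Vehicle-CCI 3 and 4. It was at 38.5, 56.0, 33.9, 60.4 and 39.2 CPM in TCF-CCI and at 31.6, 72.5, 31.5, 26.4 and 20.7 CPM in TNF-CCI. The groups overlapped: 13 of the 20 CCI libraries were below every Vehicle-sham library. The mean was 89.1 ± 57.9 CPM in Vehicle-sham and 44.5 ± 15.6 CPM over the CCI libraries, a log2 fold change of -1.01 ± 0.25 (adjusted p = 0.0285). Without Vehicle-sham 2 the Vehicle-sham mean was 65.1 ± 24.5 CPM and the log2 fold change -0.54 ± 0.25 (adjusted p = 0.31).

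Fdps makes farnesyl diphosphate, the branch point to sterols and other isoprenoids, and lies at chr2:174497402-174507031, where LOC120101179 overlaps it on the same strand. Fdps was at 46.0, 61.8, 43.5, 46.0 and 49.9 CPM in Vehicle-sham 1 to 5. It was at 29.8, 29.6, 33.5, 49.7 and 38.5 CPM in Vehicle-CCI and at 33.0, 30.8, 34.9, 48.1 and 43.0 CPM in TD-CCI. Vehicle-CCI 4 and TD-CCI 4 alone of these 10 were as high as a Vehicle-sham library. It was at 27.2, 34.5, 38.6, 31.2 and 36.1 CPM in TCF-CCI and at 26.1, 31.4, 40.1, 41.2 and 32.2 CPM in TNF-CCI. It was below every Vehicle-sham library in 18 of the 20 CCI libraries. Its log2 fold change was -0.48 ± 0.12 (adjusted p = 0.0323), and without Vehicle-sham 2 it was -0.36 ± 0.13 (adjusted p = 0.184).

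The other 5 members of this stage did not pass. Acat2, which joins the first acetyl-CoA units, was at 29.1 ± 9.50 CPM in Vehicle-sham and 21.4 ± 7.66 CPM over the CCI libraries (log2 fold change -0.45 ± 0.24, adjusted p = 0.252). The mevalonate kinases Mvk and Pmvk had log2 fold changes of -0.15 ± 0.13 and -0.33 ± 0.15, with adjusted p of 0.527 and 0.181. Mvd, which makes the first isoprenoid unit, had -0.27 ± 0.15 (adjusted p = 0.262). Ggps1, which makes the geranylgeranyl group used to anchor proteins in membranes, was at 75.0 ± 14.9 CPM in Vehicle-sham and 66.2 ± 12.6 CPM over the CCI libraries (log2 fold change -0.18 ± 0.14, adjusted p = 0.431). Without Vehicle-sham 2 the 5 log2 fold changes were -0.54 ± 0.26 for Acat2, -0.20 ± 0.14 for Mvk, -0.21 ± 0.17 for Pmvk, -0.31 ± 0.16 for Mvd and -0.08 ± 0.15 for Ggps1, and none passed.

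None of the 3 squalene enzymes passed. Fdft1, squalene synthase, was at 60.7 ± 7.86 CPM in Vehicle-sham and 45.5 ± 11.5 CPM over the CCI libraries (log2 fold change -0.42 ± 0.16, adjusted p = 0.104). It was below every Vehicle-sham library in 14 of the 20 CCI libraries, and below the 4 others in 17 when Vehicle-sham 2 was set aside. Sqle, squalene epoxidase, had a log2 fold change of -0.25 ± 0.16 (adjusted p = 0.336). Lss, which closes squalene to lanosterol, had -0.01 ± 0.19 (adjusted p = 0.972). Vehicle-sham 2 was low for Lss, at 25.3 CPM against 85.6 to 110.8 CPM in the other 4, and without it the log2 fold change was -0.22 ± 0.12 (adjusted p = 0.414). Fdft1 was then at -0.45 ± 0.17 and Sqle at -0.25 ± 0.17, and neither passed.

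In the sterol stage 2 of 8 enzymes fell. Nsdhl, a dehydrogenase that takes methyl carbons off the sterol ring, lies at chrX:150775034-150807161, with Cetn2 on the opposite strand. Nsdhl was at 24.1, 40.7, 24.9, 25.9 and 28.6 CPM in Vehicle-sham 1 to 5. It was at 18.3, 14.2, 22.7, 27.5 and 21 CPM in Vehicle-CCI and at 18.2, 19.5, 20.7, 23 and 24.4 CPM in TD-CCI. Vehicle-sham 2 was the highest of the 15, and Vehicle-CCI 2 the lowest. It was at 17.3, 17.8, 20.2, 19.9 and 20.6 CPM in TCF-CCI and at 16.9, 17.7, 22.3, 25 and 17.6 CPM in TNF-CCI. It was below every Vehicle-sham library in 17 of the 20 CCI libraries. The log2 fold change was -0.51 ± 0.13 (adjusted p = 0.0265), and without Vehicle-sham 2 it was -0.33 ± 0.12 (adjusted p = 0.194).

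Hsd17b7, a keto reductase of the same demethylation, lies at chr13:82170079-82190018, with LOC100366054 on the opposite strand. Hsd17b7 was at 9.50, 11, 14.8, 12.1 and 13.9 CPM in Vehicle-sham 1 to 5. It was at 7.92, 7.16, 9.68, 10.5 and 9.77 CPM in Vehicle-CCI and at 8.58, 8.29, 9.34, 9.63 and 9.88 CPM in TD-CCI. Here Vehicle-sham 2 was inside the range of its group. It was at 7.55, 11.3, 8.84, 10.4 and 11.6 CPM in TCF-CCI and at 7.88, 8.92, 7.95, 10.0 and 8.37 CPM in TNF-CCI. The groups overlapped: 11 CCI libraries lay below Vehicle-sham 1, the lowest of its group, and TCF-CCI 2 and 5 were also above Vehicle-sham 2. On the log2 scale the change was -0.42 ± 0.12 with all libraries (adjusted p = 0.0368) and -0.43 ± 0.12 without Vehicle-sham 2 (adjusted p = 0.102), so the size was kept and the call was not.

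Of the 6 other sterol enzymes, Msmo1, an oxidase of the ring methyl groups, came nearest to the threshold. It was at 97.4 ± 23.8 CPM in Vehicle-sham and 66.7 ± 16.5 CPM over the CCI libraries (log2 fold change -0.55 ± 0.17, adjusted p = 0.0503). Sc5d, a desaturase, had a log2 fold change of -0.49 ± 0.16 (adjusted p = 0.058), and Cyp51, which removes a methyl group from lanosterol, had -0.55 ± 0.19 (adjusted p = 0.0814). All 3 were highest of the 25 libraries in Vehicle-sham 2, and without it they were at -0.37 ± 0.17, -0.34 ± 0.16 and -0.40 ± 0.21. The reductase Tm7sf2 had -0.28 ± 0.17 with all libraries and -0.41 ± 0.15 without Vehicle-sham 2, which was the lowest of 25 for this gene. Ebp, a sterol isomerase, had -0.24 ± 0.12 (adjusted p = 0.203), and -0.16 ± 0.12 without Vehicle-sham 2. Dhcr7, the reductase of a last step, had 0.02 ± 0.15 (adjusted p = 0.945), and -0.08 ± 0.15 without Vehicle-sham 2.

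**Figure D3:**
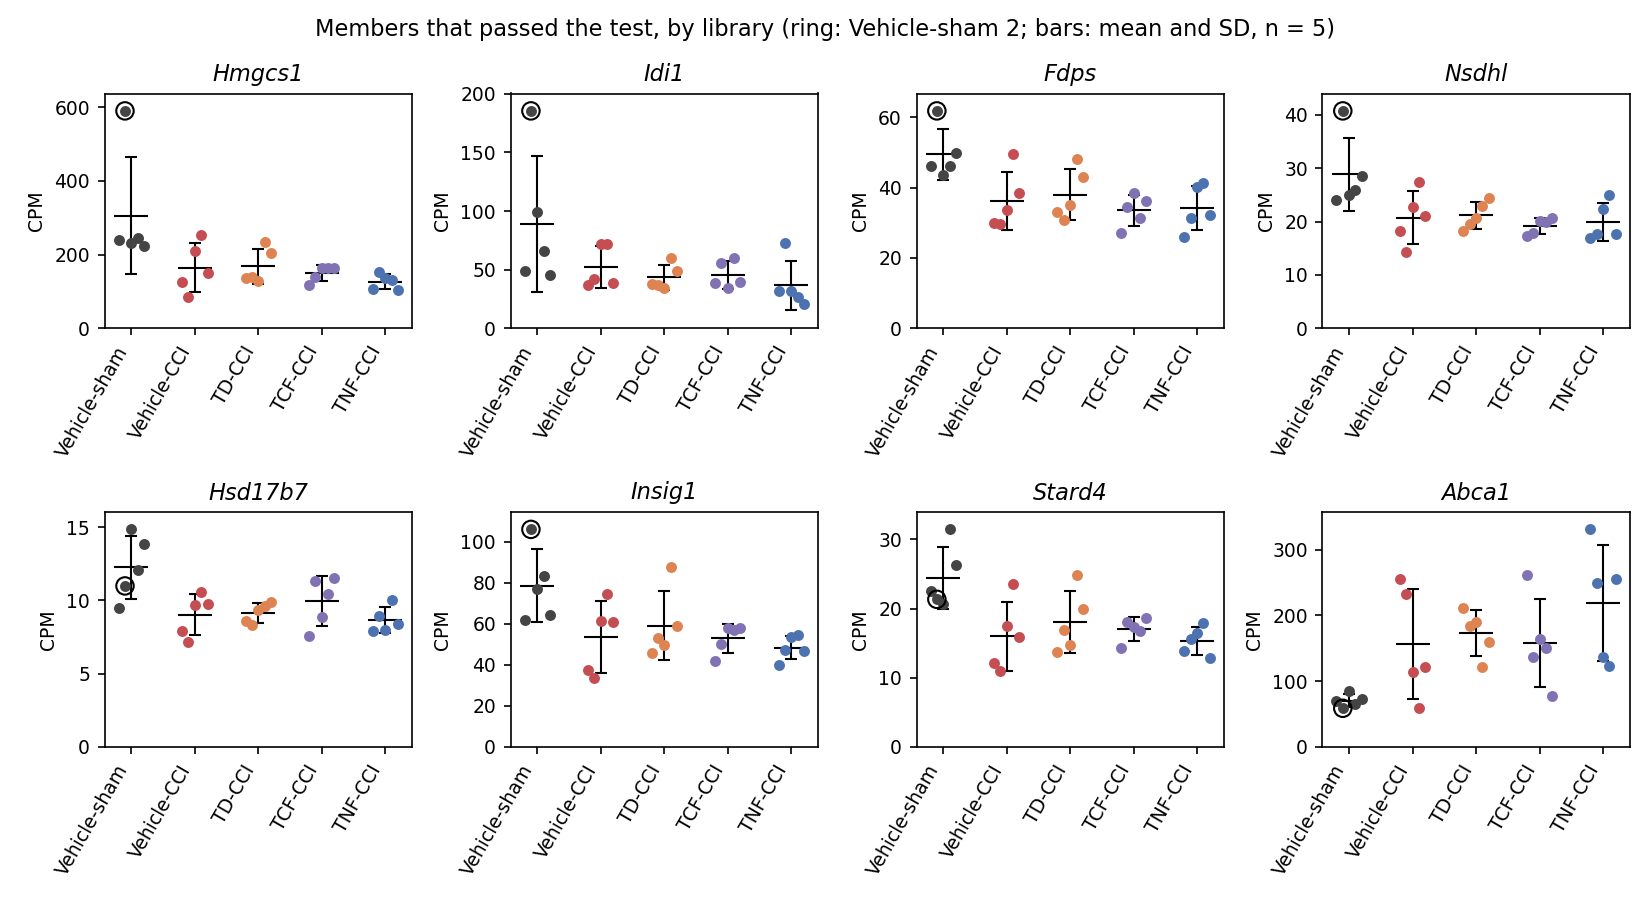
CPM of each library (points) in the 5 groups for the 8 members that passed the test of the 4 CCI groups together over Vehicle-sham, with the mean and SD of each group (n = 5); the ring marks Vehicle-sham 2. The ring is the highest point for Hmgcs1, Idi1, Fdps, Nsdhl and Insig1, lies inside its group for Hsd17b7 and Stard4, and is the lowest of its group for Abca1.

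Of the 4 sterol sensing genes, 1 fell. Insig1, which holds the SCAP and SREBP2 complex back and is itself a target of SREBP2, lies at chr4:7315494-7323972, with LOC120102204 on the opposite strand. Insig1 was at 61.8, 106, 77.0, 83.4 and 64.1 CPM in Vehicle-sham 1 to 5. It was at 37.5, 33.7, 61.3, 74.5 and 60.7 CPM in Vehicle-CCI and at 45.7, 53.2, 49.8, 87.8 and 58.9 CPM in TD-CCI. TD-CCI 4 was above 4 of the 5 Vehicle-sham libraries, and 8 of these 10 were below all of them. It was at 41.9, 50.1, 58.1, 57.0 and 57.9 CPM in TCF-CCI and at 40.0, 47.4, 53.3, 54.3 and 46.6 CPM in TNF-CCI. In 18 of the 20 CCI libraries it was below every Vehicle-sham library. The log2 fold change was -0.56 ± 0.15 (adjusted p = 0.0376), and without Vehicle-sham 2 it was -0.40 ± 0.16 (adjusted p = 0.242). Its relative Insig2 was at 45.4 ± 7.16 CPM in Vehicle-sham and 35.8 ± 6.39 CPM over the CCI libraries (log2 fold change -0.35 ± 0.13, adjusted p = 0.0892), and without Vehicle-sham 2 the log2 fold change was -0.36 ± 0.14 (adjusted p = 0.203). The transcripts of the factor and its escort differed less. Srebf2, which encodes SREBP2, was at 177 ± 49.2 CPM in Vehicle-sham and 168 ± 23.3 CPM over the CCI libraries (log2 fold change -0.08 ± 0.14, adjusted p = 0.769), and without Vehicle-sham 2, its lowest library, the log2 fold change was -0.21 ± 0.11 (adjusted p = 0.39). Mir33 overlaps Srebf2 on the same strand. Scap had 0.04 ± 0.15 (adjusted p = 0.885), and -0.06 ± 0.14 without Vehicle-sham 2. These are transcript levels, and the cutting of SREBP2 was not measured.

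Stard4, a carrier of cholesterol between membranes and another known target of SREBP2, fell. It lies at chr18:24814683-24830024. Stard4 was at 22.6, 21.3, 20.6, 31.5 and 26.3 CPM in Vehicle-sham 1 to 5. It was at 12.2, 11, 17.5, 23.5 and 15.8 CPM in Vehicle-CCI and at 13.8, 16.9, 14.8, 24.9 and 20.0 CPM in TD-CCI. Vehicle-CCI 4 and TD-CCI 4 were again the highest of these 10. It was at 14.2, 18.1, 17.4, 16.7 and 18.7 CPM in TCF-CCI and at 13.8, 15.5, 16.5, 17.8 and 12.8 CPM in TNF-CCI. It was below every Vehicle-sham library in 18 of the 20 CCI libraries. Its log2 fold change was -0.56 ± 0.14 (adjusted p = 0.0287) and hardly moved without Vehicle-sham 2, at -0.58 ± 0.15 (adjusted p = 0.0777). It was called with the mitochondrial ribosomal RNA share as a covariate, at an adjusted p of 0.0473. Soat1, which esterifies cholesterol for storage in droplets, did not pass. Soat1 was at 25.5, 18.2, 20.8, 26.8 and 28.2 CPM in Vehicle-sham 1 to 5. It was at 39.6, 26.5, 23.7, 25.8 and 25.8 CPM in Vehicle-CCI and at 36.3, 29.1, 32.0, 31.8 and 40.0 CPM in TD-CCI. All 5 TD-CCI libraries were above all 5 of Vehicle-sham, while Vehicle-CCI overlapped it. It was at 36.6, 22.9, 29.1, 25.2 and 23.7 CPM in TCF-CCI and at 46.2, 35.7, 31.3, 27.9 and 37.3 CPM in TNF-CCI. For Soat1 the log2 fold change was 0.38 ± 0.14 (adjusted p = 0.0863), and 0.33 ± 0.14 without Vehicle-sham 2 (adjusted p = 0.249).

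Abca1 was the member that rose. It moves cholesterol and phospholipid out of the cell onto apolipoproteins, and lies at chr5:67678267-67801162. Abca1 was at 69.1, 58.6, 85.2, 65.3 and 72.7 CPM in Vehicle-sham 1 to 5. It was at 256, 233, 113, 59.1 and 121 CPM in Vehicle-CCI and at 212, 183, 190.3, 122 and 159 CPM in TD-CCI. Vehicle-CCI 4 alone of these 10 was within the range of Vehicle-sham. It was at 262, 137, 164, 150.3 and 77.7 CPM in TCF-CCI and at 331, 249, 136, 124 and 256 CPM in TNF-CCI. It was above every Vehicle-sham library in 18 of the 20 CCI libraries, and the exceptions were Vehicle-CCI 4 and TCF-CCI 5. The mean was 70.2 ± 9.89 CPM in Vehicle-sham and 177 ± 70.6 CPM over the CCI libraries. The log2 fold change was 1.32 ± 0.29 (adjusted p = 0.0222), and without Vehicle-sham 2 it was 1.28 ± 0.32 (adjusted p = 0.07).

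The other genes of this role did not pass. Abcg1, the exporter to lipoprotein particles, was at 33.3 ± 9.71 CPM in Vehicle-sham and 44.6 ± 9.04 CPM over the CCI libraries (log2 fold change 0.42 ± 0.18, adjusted p = 0.137). Without Vehicle-sham 2, its lowest library at 16.2 CPM, its log2 fold change was 0.27 ± 0.15 (adjusted p = 0.4). Nr1h3, the LXR form found mainly in macrophages, liver and gut, was at 4.18 ± 0.543 CPM in Vehicle-sham and 5.34 ± 1.56 CPM over the CCI libraries (log2 fold change 0.34 ± 0.20, adjusted p = 0.304). Nr1h2, the widely expressed LXR form, had 0.07 ± 0.13 (adjusted p = 0.772). Cyp46a1, the neuronal enzyme of cholesterol turnover, had -0.05 ± 0.16 (adjusted p = 0.872). Without Vehicle-sham 2, Nr1h3 was at 0.40 ± 0.22, Nr1h2 at -0.01 ± 0.12 and Cyp46a1 at -0.08 ± 0.16, and none passed.

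Each CCI group was also set against Vehicle-sham on its own. These 4 comparisons share the same 5 Vehicle-sham libraries, and none of them tests a difference between CCI groups. In TNF-CCI, 3 members fell: Hmgcs1 with a log2 fold change of -1.27 ± 0.28 (adjusted p = 0.0231), Idi1 with -1.29 ± 0.35 (0.0463) and Stard4 with -0.68 ± 0.19 (0.0496). Abca1 rose, with 1.64 ± 0.34 (0.0198). Of all genes 0.864% were called lower and 1.71% higher in TNF-CCI. Without Vehicle-sham 2 only Abca1 was called, at 1.61 ± 0.36 (adjusted p = 0.0317), beside 1.35% of all genes called in either direction. The count of 4 was 7 without TNF-CCI 2, where 7.35% of all genes were called, and 0 without Vehicle-sham 4, TNF-CCI 1 or TNF-CCI 5, where 0% were. It was 2 without Vehicle-sham 3, Vehicle-CCI 5, TNF-CCI 3, TD-CCI 1, 2, 3 or 5, or TCF-CCI 2, 3, 4 or 5. The shares of all genes called in these last fits are not given here. Their counts alone do not tell a change in the members from a change in all genes.

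In the other 3 groups edgeR called no member. Vehicle-CCI had 0 members called (0% of all genes), with 10 of 30 under 0.05 before adjustment beside 12.7% of all genes. TD-CCI had 0 (0% of all genes), with 11 under 0.05 before adjustment beside 16.5%. TCF-CCI had 0 (0.0142% of all genes), with 13 beside 18.0%. The other tools called more in places. DESeq2 gave 1, 1 and 2 members in the 3 groups, beside 1.15%, 1.00% and 1.54% of all genes, and limma voom gave 0, 0 and 2, beside 0%, 0.0095% and 1.84%. Without Vehicle-CCI 4, 3 members were called in Vehicle-CCI, beside 1.72% of all genes. Without Vehicle-sham 2 none was called in the 3 groups, with 4, 4 and 9 under 0.05 before adjustment, beside 10.5%, 9.75% and 10.8% of all genes. In Vehicle-CCI and TD-CCI 4 of 30 is near that background. For Hmgcs1 the log2 fold changes were -0.90 ± 0.28 (Vehicle-CCI), -0.86 ± 0.28 (TD-CCI) and -1.03 ± 0.28 (TCF-CCI). For Abca1 they were 1.16 ± 0.33, 1.30 ± 0.33 and 1.17 ± 0.33 in that order. For Stard4 they were -0.61 ± 0.19, -0.44 ± 0.19 and -0.52 ± 0.19. Medians over the 19 enzymes were -0.40 in Vehicle-CCI, -0.29 in TD-CCI, -0.39 in TCF-CCI and -0.41 in TNF-CCI, and without Vehicle-sham 2 they were -0.33, -0.29, -0.40 and -0.29 in that order.

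Counted by libraries that do not overlap, TCF-CCI lay wholly below Vehicle-sham for 5 members, Hmgcs1, Fdps, Nsdhl, Insig1 and Stard4, as did 1.82% of all genes. TNF-CCI lay wholly below for 4, Hmgcs1, Fdps, Insig1 and Stard4 (0.926% of all genes), and wholly above for Abca1 (2.58%). TD-CCI lay wholly above for 4, Soat1, Nr1h3, Abca1 and Abcg1 (2.36%), and below for 0 (0.864%). Vehicle-CCI did so for 0 members below (0.318%) and 0 above (0.465%), and TCF-CCI for 0 above (1.73%). For Nr1h3 in TD-CCI the margin was very narrow, with a lowest value of 4.666 CPM against a highest of 4.662 CPM in Vehicle-sham. With Vehicle-sham 2 set aside, Fdft1 and Tm7sf2 joined both TCF-CCI and TNF-CCI below Vehicle-sham, where the shares of all genes became 2.46% and 1.69%, Nsdhl stayed in TCF-CCI, and the members above were the same as before.

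The supplements were compared with vehicle among the injured groups. No member passed in TD-CCI (0% of all genes called), TCF-CCI (0%) or TNF-CCI (0%) against Vehicle-CCI. At an unadjusted p under 0.05 edgeR gave 0, 1 and 0 members, beside 1.75%, 1.44% and 3.46% of all genes. DESeq2 and limma voom also called 0 in each. In TD-CCI the smallest p-values were those of Soat1, at a log2 difference of 0.26 ± 0.17 (unadjusted p = 0.133), Ebp, at -0.22 ± 0.15 (0.146), and Dhcr7, at 0.26 ± 0.19 (0.189). In TCF-CCI they were those of Ebp, at -0.32 ± 0.15 (unadjusted p = 0.0408), Insig2, at -0.20 ± 0.16 (0.222), and Hsd17b7, at 0.14 ± 0.15 (0.356). In TNF-CCI they were those of Soat1, at 0.34 ± 0.17 (unadjusted p = 0.0552), Idi1, at -0.52 ± 0.34 (0.143), and Abca1, at 0.49 ± 0.33 (0.151). Every adjusted p here rounded to 1.00, which does not show that the groups were alike.

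The values behind 3 of these were as follows. Ebp was at 8.77, 9.39, 7.22, 7.01 and 8.40 CPM in Vehicle-sham 1 to 5. It was at 7.24, 6.73, 9.99, 8.51 and 6.43 CPM in Vehicle-CCI and at 7.40, 6.84, 7.02, 6.53 and 5.54 CPM in TD-CCI. Vehicle-CCI 3 was the highest of all 25 libraries for this isomerase. It was at 6.82, 7.53, 5.62, 5.24 and 5.95 CPM in TCF-CCI and at 6.66, 7.44, 6.29, 7.48 and 7.42 CPM in TNF-CCI. TCF-CCI 3, 4 and 5 were below every Vehicle-CCI library, and the other 2 were within their range. Dhcr7 was at 15.9, 9.50, 16.4, 17 and 16.6 CPM in Vehicle-sham 1 to 5. It was at 12.4, 13, 11.4, 20.1 and 15.6 CPM in Vehicle-CCI and at 13.6, 14.1, 16.6, 21.4 and 21.4 CPM in TD-CCI. TD-CCI 4 and 5 were the highest of the 25. It was at 13.7, 12.5, 18.0, 11 and 15.2 CPM in TCF-CCI and at 18.0, 10.7, 18.5, 15.2 and 15.7 CPM in TNF-CCI. The groups overlapped throughout. Insig2 was at 35.9, 40.1, 50.1, 53.1 and 48.0 CPM in Vehicle-sham 1 to 5. It was at 31.5, 28.3, 43.6, 49.9 and 39.9 CPM in Vehicle-CCI and at 30.6, 41.4, 28.8, 44.2 and 35.1 CPM in TD-CCI. Of these 10, 5 were below every Vehicle-sham library. It was at 28.2, 33.4, 33.6, 38.4 and 34.0 CPM in TCF-CCI and at 27.4, 34.7, 35.6, 45.0 and 32.2 CPM in TNF-CCI. The TCF-CCI values lay inside the range of Vehicle-CCI but for the lowest.

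The 20 CCI libraries differed among themselves, and this was followed in Abca1 and the 19 enzymes, a relation chosen after the values were seen. Vehicle-CCI 4 had the lowest Abca1 of the 20, at 59.1 CPM, and its enzymes had a median of 0.15 above the mean of the 4 other Vehicle-sham libraries on the log2 scale. Vehicle-CCI 2 had 233 CPM of Abca1 and was the lowest of 25 libraries for 8 enzymes, with an enzyme median of -0.65 on the same scale. Across the 20 libraries Pearson's r between the log2 CPM of Abca1 and of an enzyme was negative for 18 of 19 enzymes, with a median of -0.66. It was strongest for Cyp51, at -0.81 (Spearman's rho -0.76), and for Fdft1, at -0.80 (rho -0.77). Two-sided tests with 100000 permutations gave both an adjusted p of 0.00044 for r, and 0.00081 and 0.00046 for rho, over the 31 relations computed. For Hmgcs1, r was -0.73 and rho -0.77, with permutation p of 0.00034 and 9e-05 and adjusted p of 0.0012 and 0.00046. In all, 13 enzymes had a negative r with an adjusted permutation p under 0.05, and 13 a negative rho. Of all other genes tested, 50.3% had a negative r with Abca1, with a median of 0.00. The weakest r of these 13 enzymes was -0.57, and 7.32% of all genes had an r at or below it. Ggps1 was the exception in sign, with an r of 0.12 (rho 0.07, permutation p = 0.6 and 0.76).

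These relations held within the groups: with each group's mean taken off, r was negative for 18 of 19 enzymes, with a median of -0.74, and for 49.1% of all genes, with a median of 0.01. Without Vehicle-CCI 4 and TCF-CCI 5, the 2 libraries farthest from the median of Abca1, r was negative for 18 of 19, from -0.80 to 0.02. For Hmgcs1 it was then -0.68. All values of a library share its total and its mixture of cells. The summed CPM of 8 microglia and macrophage markers moved with both sides. Against it Abca1 had an r of 0.84 (rho 0.82, permutation p = 1e-05, the smallest these permutations can give, and 5e-05; adjusted p = 0.00031 and 0.00046). Hmgcs1 had an r of -0.65 (rho -0.74, permutation p = 0.0021 and 0.00034; adjusted p = 0.005 and 0.0011). Without the 2 farthest libraries the value for Abca1 was 0.80. For Hmgcs1 it was -0.64 without the 2 libraries farthest from its own median, Vehicle-CCI 4 and TD-CCI 4. Within groups the values were 0.88 for Abca1 and -0.68 for Hmgcs1. Against the summed neuronal markers Abca1 had an r of -0.48, which was -0.28 without the 2 farthest libraries (adjusted permutation p = 0.053 with all 20). Against the astrocyte sum it had 0.53, and 0.42 without them (adjusted permutation p = 0.032 with all 20). The part of cell mixture in these relations was not tested. With the mitochondrial ribosomal RNA share r was -0.03 for Abca1 and 0.21 for Hmgcs1 (permutation p = 0.89 and 0.36), and with the library total it was 0.18 and -0.14 (permutation p = 0.43 and 0.54).

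**Figure D4:**
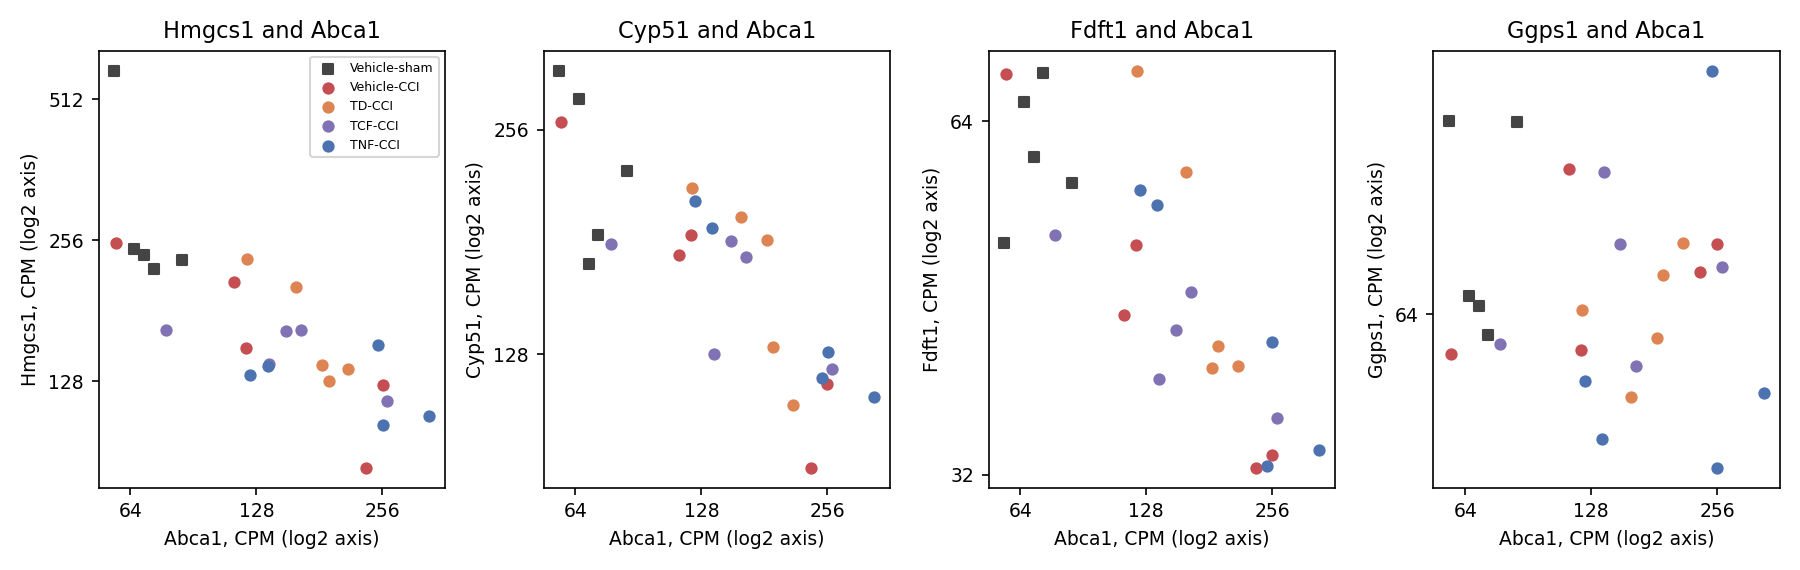
Each point is a library, with the CPM of Abca1 on the horizontal and of Hmgcs1, Cyp51, Fdft1 or Ggps1 on the vertical axis, both on log2 scales, coloured by group. In the CCI libraries (circles) Hmgcs1, Cyp51 and Fdft1 are lower where Abca1 is higher, and Ggps1 shows no such slope; the Vehicle-sham libraries (squares) were left out of the correlations.

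Markers of cell types were read in the same comparison. Of 8 microglia and macrophage markers 6 rose, with a median log2 fold change of 1.07, and none was below 0. Their summed level was 130.1 to 201 CPM in Vehicle-sham, 201 to 561 in Vehicle-CCI, 262 to 375 in TD-CCI, 162 to 381 in TCF-CCI and 278 to 534 in TNF-CCI. Cd68, a lysosomal marker of these cells, had a log2 fold change of 2.28 (adjusted p = 0.0222). Of 8 neuronal markers 2 fell and all 8 were below 0, with a median of -0.40. Their sum was 4046 to 8045 CPM in Vehicle-sham and 2600.2 to 6779 CPM over the CCI groups. Of 8 oligodendrocyte markers 0 passed, with a median of -0.12, and 1 of 8 astrocyte markers rose, Gfap, at 1.33. The oligodendrocyte sum was 10832 to 18679 CPM in Vehicle-sham and 7605 to 26991 CPM in the CCI groups. It was highest in Vehicle-CCI 4 and TD-CCI 4, at 26991 and 22681 CPM, the same 2 libraries in which Hmgcs1, Fdps, Insig1 and Stard4 were not below every Vehicle-sham library. Over the 20 CCI libraries Hmgcs1 had an r of 0.30 with this sum (permutation p = 0.2, adjusted 0.3), and -0.39 without those 2. TD-CCI 4 also stood apart in the sum of 6 thalamus markers, at 364 CPM against 74.0 to 129 CPM in the other libraries. Not every marker was raised there. Slc17a6 was at 115 CPM in TD-CCI 4, but Prkcd was at 14.8 CPM, below its CCI median of 20.9 CPM. Without TD-CCI 4, 10 members were called in the mean comparison, beside 6.63% of all genes. Markers of hippocampal excitatory neurons, the labelled tissue, summed to 737 to 1058 CPM in Vehicle-sham and 512 to 987 CPM in the CCI groups. Choroid plexus markers reached 3928 CPM in Vehicle-CCI 3. Without Vehicle-sham 2 no marker of these lists was called, and the microglia median was 1.16. Which cells carried the members' changes was not tested.

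In 7 further lists of 60 genes around the pathway, 4 genes passed in the same comparison, where 3.68% of all genes were called lower and 2.24% higher. With both directions counted, 4 of 60 is near that background. Among 10 lipoprotein genes 2 rose and 0 fell: Lcat, which esterifies cholesterol on lipoproteins, at 1.20 ± 0.30 (adjusted p = 0.0285), and Pltp, which moves phospholipid between them, at 1.09 ± 0.32 (adjusted p = 0.046). Lcat was at 12.8, 9.45, 14.3, 10.9 and 13.4 CPM in Vehicle-sham 1 to 5. It was at 33.9, 30.9, 15.3, 17.1 and 22.7 CPM in Vehicle-CCI and at 33.5, 23.3, 31.3, 85.4 and 25 CPM in TD-CCI. TD-CCI 4 was the highest of the 25 by far. It was at 29.5, 12.7, 38.0, 18.0 and 12.7 CPM in TCF-CCI and at 29.2, 24.7, 41.7, 15 and 36.5 CPM in TNF-CCI. Only TCF-CCI 2 and 5 lay within the Vehicle-sham range. Pltp was at 29.3, 12.8, 24.0, 29.5 and 29.6 CPM in Vehicle-sham 1 to 5. It was at 63.3, 55.9, 15.9, 47.5 and 64.5 CPM in Vehicle-CCI and at 60.7, 41.2, 63.3, 61.6 and 83.0 CPM in TD-CCI. Vehicle-CCI 3 was below 4 of the 5 Vehicle-sham libraries. It was at 66.4, 23.2, 77.4, 28.0 and 33.0 CPM in TCF-CCI and at 81.3, 31.1, 65.8, 24.9 and 89.4 CPM in TNF-CCI. Vehicle-sham 2 was the lowest of all for Pltp. Without it Lcat was at 1.15 ± 0.33 (adjusted p = 0.107) and Pltp at 0.95 ± 0.34 (adjusted p = 0.18).

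Among 11 genes of lysosomal sterol release and transfer 1 rose, Npc2, which hands cholesterol from the lysosome lumen to Npc1. Npc2 was at 46.7, 86.9, 44.5, 54.9 and 66.7 CPM in Vehicle-sham 1 to 5. It was at 194, 131, 88.7, 75.8 and 109.9 CPM in Vehicle-CCI and at 114, 133, 84.4, 109.6 and 98.0 CPM in TD-CCI. Vehicle-sham 2 was the highest of its group and above 2 of these 10. It was at 113, 59.8, 103, 88.8 and 54.0 CPM in TCF-CCI and at 188, 140.1, 110.0, 130.3 and 160.5 CPM in TNF-CCI. The log2 fold change was 0.90 ± 0.20 (adjusted p = 0.0232), and without Vehicle-sham 2 it was 1.10 ± 0.21 (adjusted p = 0.0447), so this call was kept. Npc1 had 0.34 (adjusted p = 0.122). Among 7 genes of SREBP processing 1 fell, Mbtps2, the protease of the second cut of SREBP, at -0.54 ± 0.13 (adjusted p = 0.024). Mbtps2 was at 23.5, 44.4, 28.4, 26.5 and 28.0 CPM in Vehicle-sham 1 to 5. It was at 23.2, 15.9, 23.6, 23.4 and 19.6 CPM in Vehicle-CCI and at 18.9, 20.9, 19.5, 23.1 and 23.7 CPM in TD-CCI. Vehicle-sham 2 was far above the others. It was at 21.2, 23.1, 18.9, 25.8 and 20.1 CPM in TCF-CCI and at 18.6, 25.4, 14.9, 18.3 and 16.1 CPM in TNF-CCI. Without Vehicle-sham 2 it was -0.34 ± 0.12 (adjusted p = 0.172). In the same list Rnf139, a sterol-sensitive ubiquitin ligase, had -0.46 (adjusted p = 0.0663).

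No gene passed in the other 4 lists. Of 9 other exporters and LXR partners or targets, the smallest p were those of Rxra, the partner receptor of LXR, at 0.46 (adjusted p = 0.0569), and Mylip, an LXR target, at 0.39 (adjusted p = 0.156). Of 5 oxysterol enzymes, Ch25h, which makes an oxysterol in macrophages, was at 1.45 ± 0.62 CPM in Vehicle-sham and 3.85 ± 2.26 CPM over the CCI libraries, a log2 fold change of 1.37 ± 0.45 (adjusted p = 0.0628), and Hsd3b7 had 0.19. Of 10 genes of fatty acid synthesis, which SREBP also drives, Me1 had -0.32 (adjusted p = 0.202) and Elovl6 -0.25 (adjusted p = 0.296), with a list median of -0.09. Of 8 genes of the other isoprenoid branches, Nus1 had -0.44 (adjusted p = 0.0561) and Pdss1 -0.32 (adjusted p = 0.0846).

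The authors' deposited table for each CCI group gave DESeq2 values over the control. In the authors' deposited table no member had an adjusted p under 0.05 in Vehicle-CCI, where 0.326% of all genes with an adjusted p did. The authors' deposited table for TD-CCI had Soat1 and Abca1 higher (2.34% of all genes). The authors' deposited table for TCF-CCI had Hmgcs1, Fdps, Fdft1 and Stard4 lower and Abca1 higher (2.24%). The authors' deposited table for TNF-CCI had Hmgcs1, Insig1 and Stard4 lower and Abca1 higher (3.53%). For Abca1 the authors' deposited table gave log2 fold changes of 1.16, 1.29, 1.18 and 1.64 in Vehicle-CCI, TD-CCI, TCF-CCI and TNF-CCI. For Hmgcs1 the authors' deposited table gave -0.91, -0.89, -1.03 and -1.29 in the same order. The fits of the authors' tables and the 25-library fit rest on the same libraries and are not independent.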

How the data were processed

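PolyA RNA of rat hippocampus was sequenced in 25 libraries, 5 per group; groups came from the labels. The authors deposited read counts per gene, whole numbers without normalization, with gene positions and model lengths. Per the submitters' processing notes the tools were featureCounts, STAR, DESeq2 and Salmon (no version or role stated), on mRatBN7.2. Whether counting used strand is not given in the sources used here: reads of overlapping genes cannot be told apart. The authors also deposited, per the file headers, DESeq2 log2 fold changes and p-values of each CCI group over the control.

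Counts were fitted here with edgeR 4.0.16 in R 4.3.3 (TMM, filterByExpr, robust quasi-likelihood F test), all 25 libraries in 1 fit with a mean per group; 7 genes with empty cells were left out. P-values were Benjamini-Hochberg adjusted over 21064 genes, with a threshold of 0.05. Log2 CPM in correlations used a prior count of 2. Fold changes are first-named group over second, ± SE; levels are ± SD. Scripts were tested on simulated data. Alternatives were DESeq2 size factors, no filter, 1 CPM in 5 libraries, a replicate block, DESeq2 1.42.0, limma 3.58.1 voom with quality weights, only the groups compared, the mitochondrial rRNA share as a covariate, Vehicle-sham 2 and 3 left out, and each library left out. All members are described; every library's value is given for members called in the mean comparison and for the 3 of smallest p between CCI groups. Of the other lists, called genes and the 2 of smallest p are named. Members and lists were chosen with earlier results of these data known. Replicate numbers were not taken as pairs.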

Additional observations from a re-analysis of the deposited data

Results flagged for a closer look

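In each group of 5 libraries the highest and lowest value of each member were tested for a gap to the rest by Dixon's criterion, 150 groups in all. Of these 13 passed, where chance gives about 1 in 20 for a single test. The members share the same libraries, and the share over all genes is not given here. The count is therefore not a result about the members. In Vehicle-sham, 6 concerned Vehicle-sham 2, which was far above its group for Hmgcs1 (589.6 CPM, next 245) and Nsdhl (40.7, next 28.6). It was far below its group for Tm7sf2 (5.24, next 10.8), Dhcr7 (9.50, next 15.9), Nr1h2 (30.6, next 46.1) and Abcg1 (16.2, next 34.9). Of all tested genes, 21.8% were highest and 31.4% lowest of the 25 libraries in Vehicle-sham 2, so such gaps are not particular to these members. TNF-CCI 2 was high for Idi1 (72.5 CPM, next 31.6) and Ggps1 (100.1, next 56.6), and low for Mvd (8.84, next 14.2) and Srebf2 (118, next 169.8). The mitochondrial rRNA share of TNF-CCI 2 was 10.9%, the highest among the CCI libraries. The 3 others were Lss in TD-CCI 5 (90.7 CPM, next 80.8), Soat1 in Vehicle-CCI 1 (39.6, next 26.5) and Nr1h3 in TD-CCI 1 (5.99, next 4.99).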

How the results depend on the processing

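With all libraries, 8 members were called in the mean of the 4 CCI groups versus Vehicle-sham. The count was 14 with a replicate block, 2 with mitochondrial rRNA share added as covariate and 0 with Vehicle-sham 2 and 3 both left out, where 8.84%, 0.798% and 0% of all genes were called beside 5.92% with all libraries. Leaving out 1 library gave 0 (Vehicle-sham 2) to 13 (Vehicle-CCI 4). In TNF-CCI versus Vehicle-sham the count of 4 was 2 with no filter on low counts, 11 with a replicate block, 1 with the mitochondrial rRNA share, 9 with DESeq2, 1 with only the groups compared and 0 without Vehicle-sham 2 and 3, and 0 to 7 with 1 library left out. In Vehicle-CCI versus Vehicle-sham the count of 0 was 1 with DESeq2, and 0 to 3 with 1 library left out. In TD-CCI versus Vehicle-sham it was 1 with DESeq2 and 1 with only the groups compared, and in TCF-CCI versus Vehicle-sham 2 with DESeq2 and 2 with limma voom. For TD-CCI with only the groups compared, the share of all genes called is not given here. That count alone does not tell a change in the members from a change in all genes. The fit of only the groups compared was not run for the mean comparison, since it is the same fit. In TNF-CCI the shares of all genes called were 1.19%, 5.65%, 0.489%, 5.62%, 0.994% and 0% in the order given, beside 2.57%. The causes were not tested, beyond fewer samples where libraries were left out.

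The replicate numbers of the titles were not taken as pairs, since no label says what they share and not every pair was over 0.1. Over 50 pairs of equal number the correlation of deviations from the group means ran from -0.32 to 0.44 (median 0.12, against -0.02 for pairs of unequal number), 27 were over 0.1, and 11 of 25 libraries correlated best with their own number, a hint from the data and not from the design. The replicate block is therefore given here only.

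Signs turned for small fold changes in the mean of the 4 CCI groups versus Vehicle-sham. Ggps1 was at 0.0318 with the mitochondrial rRNA share and 0.058 without Vehicle-sham 2 and 3. Lss was at 0.0064 with no filter and 0.0202 with the replicate block, and at -0.22 to 0.11 with 1 library left out. With the mitochondrial rRNA share, limma voom and Vehicle-sham 2 and 3 left out, in that order, Dhcr7 was at -0.14, -0.11 and -0.0894, Scap at -0.18, -0.0865 and -0.16, and Nr1h2 at -0.0904, -0.0519 and -0.035. With 1 library left out, Dhcr7 ran from -0.0757 to 0.0656, Scap from -0.0585 to 0.15, Nr1h2 from -0.0105 to 0.11 and Cyp46a1 from -0.16 to 0.0433. None of the 8 called members changed sign in this comparison under the 33 alternatives run for it. With DESeq2 the median of all genes was -0.10 in place of 0.01, and the enzyme median was -0.42 under both.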
